A study of Homo sapiens with 6 samples.

Results

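Integrins, laminins and collagens form the adhesion layer between an epithelium and its matrix. Integrins are receptors made of an alpha and a beta chain, and the pair that is formed decides which matrix protein is bound. Laminins are made of an alpha, a beta and a gamma chain and build the sheet of the basement membrane on which intestinal epithelial cells sit, while type IV collagen forms its network and other collagens form fibrils, filaments or anchors. The genes described here were taken by symbol: integrin alpha and beta chains (ITGA, ITGB), laminin chains (LAMA, LAMB, LAMC) and collagen chains (COL), without antisense symbols ending in -AS1, with at least 30 reads summed over all libraries. This gave 41 genes out of 91 symbols of the same pattern and 24462 symbols in all. Of the 41, 14 were integrin chains, 7 were laminin chains and 15 were collagen chains. The other 5 only share a prefix: ITGB1BP1, ITGB1BP2, ITGB3BP, COL4A3BP (a ceramide transfer protein gene) and the pseudogene LAMB2P1.

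RNA was sequenced from LS 174T, a cell line from a human colorectal adenocarcinoma that makes mucins and serves as a goblet cell model. The compared groups were cells treated for 4 h with propionate at 4 mM (n = 3 libraries) and untreated control cells (n = 3 libraries). Propionate is made from fibre by bacteria of the gut. All cells were of this 1 line and were grown in serum-containing medium. Nothing in the labels tells separate cultures from repeat libraries of one culture, and the p-values refer only to the spread among these libraries, which may be technical. In RNA from whole cultures, fewer cells that express a gene and less RNA per cell cannot be told apart.

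Library totals were 11645597 to 12746170 reads with propionate and 11603288 to 11921005 reads in control. Levels are given in CPM, the reads of a gene per 1000000 reads of its library after scaling by TMM (trimmed mean of M-values) factors, and 3 reads corresponded to between 0.233 and 0.262 CPM. Each of 12 epithelial marker genes had at least 30 reads. The 11 fibroblast and mesenchymal markers, which include COL1A1 and COL3A1, are given beside COL1A1. Of 7 endothelial markers, CDH5, VWF, KDR and CLDN5 had no read. CD3E and CD3D had no read among 11 leukocyte markers, whose summed level was 25.6 to 30.2 CPM with propionate and 32.6 to 36.3 CPM in control, and among 5 platelet markers GP9 had none, at 1.93 to 4.91 CPM with propionate and 2.65 to 3.0 CPM in control.

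Propionate was followed by changes in single chains of each family rather than by a shift of all of them. Of the 41 genes, 35 had enough reads to be tested, 7 of which rose and 3 of which fell (adjusted p under 0.05 in edgeR's quasi-likelihood test, with Benjamini-Hochberg adjustment over all genes tested). The rises were ITGA3, ITGB7, LAMB2, LAMB2P1, COL9A3, COL1A1 and COL6A1, and the falls were ITGB8, LAMB1 and COL4A2. Among all 13605 tested genes 17.2% were called higher, 17% were called lower and 34.2% were called in either direction. The 10 calls among 35 genes therefore did not exceed the share in the whole table. The median log2 fold change of the 35 was 0.04, and that of all tested genes was -0.01. In each of the 10 called genes the groups did not overlap. Every propionate library exceeded every control in 10 of the 35 tested genes and fell below every control in 5, called or not. Among all tested genes these shares were 22.4% and 22.7%. With the replicate number as a block, 8 of the 35 genes were called higher and 5 lower. That fit called 21.9% of all tested genes higher and 22.6% lower. The calls that the block added were LAMA5 (adjusted p = 0.0219), ITGA6 (adjusted p = 0.00134) and ITGB1BP1 (adjusted p = 0.0438).

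**Figure D1:**
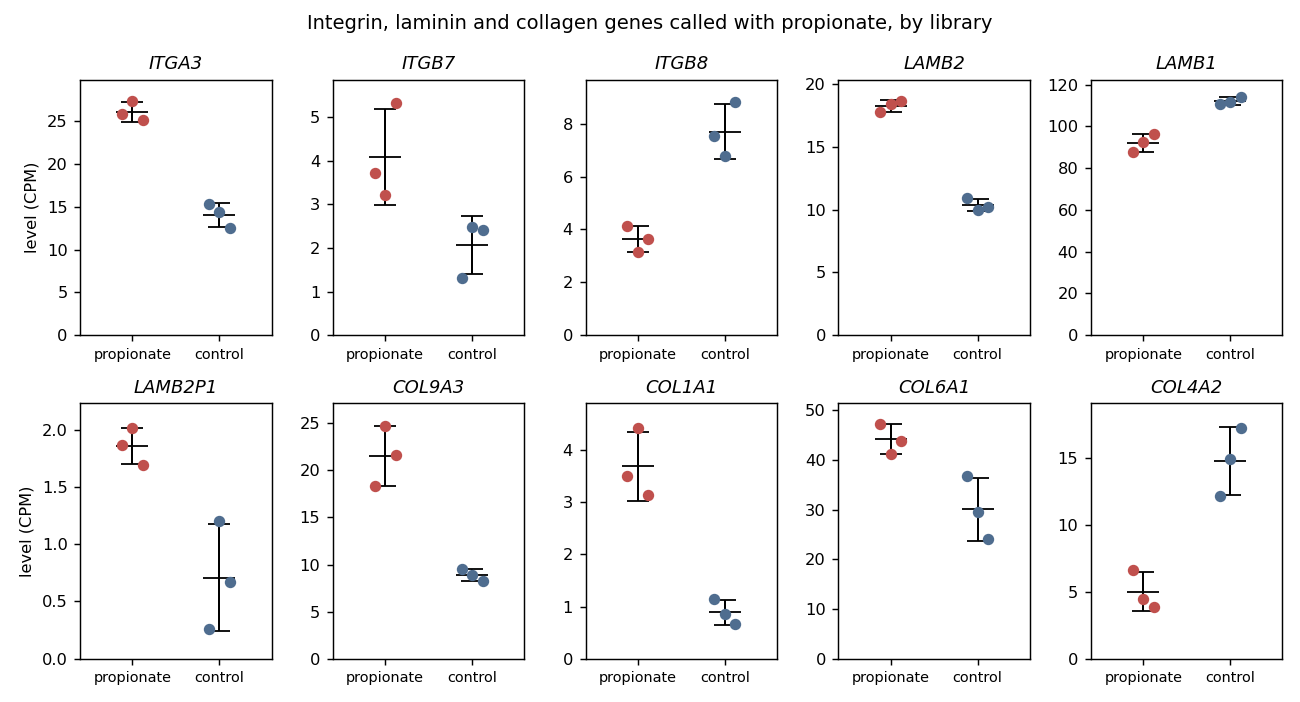
Level (CPM, linear axis from 0) of the 10 called genes in each library, with propionate at the left and control at the right of each panel; the bars give the mean and SD of 3 libraries. The groups do not overlap in any panel, as for COL4A2, whose means are 5.02 CPM with propionate and 14.8 CPM in control.

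Of the integrin alpha chains, 1 of 7 tested rose. ITGA3, the alpha chain of a laminin receptor that pairs with ITGB1, had 25.8, 27.4 and 25.1 CPM in the propionate libraries, against 15.3, 14.4 and 12.5 CPM in the control libraries. All 3 propionate libraries stood well above all 3 controls. ITGA3 was 1.86-fold higher with propionate, with a log2 fold change of 0.89 (SE 0.130) and an edgeR adjusted p of 3.02e-05.

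ITGA6, the other main alpha chain of epithelial laminin receptors, which pairs with ITGB4 in hemidesmosomes or with ITGB1, had 330.4, 317 and 417 CPM with propionate, against 379, 346 and 509 CPM in control. The groups overlapped, and library 3 was the highest of each group. Its log2 fold change was -0.21 (SE 0.121, edgeR adjusted p = 0.185), and within each of the 3 same-number pairs it was lower with propionate, so that the fit with the replicate block called it lower (log2 fold change -0.21, adjusted p = 0.00134). Without propionate library 3 it was also called lower, with a log2 fold change of -0.35 and an adjusted p of 0.0387.

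The remaining alpha chains did not pass the test. ITGA2, which forms a collagen receptor with ITGB1, had 18.2, 22.4 and 23.9 CPM with propionate and 19.1, 24.8 and 22.3 CPM in control. ITGA1, the alpha chain of the other epithelial collagen receptor, had 3.65, 6.75 and 4.15 CPM with propionate and 3.94, 2.57 and 4.92 CPM in control. For both the groups overlapped, and the 95% interval of the log2 fold change ran from -0.33 to 0.25 for ITGA2 and from -0.27 to 0.96 for ITGA1. ITGAV, which binds proteins with an arginine-glycine-aspartate motif, had 23.0, 15.9 and 21.3 CPM with propionate and 27.4, 25.1 and 18.7 CPM in control (log2 fold change -0.24 with SE 0.157, adjusted p = 0.265 by edgeR). ITGA7 and ITGAE had log2 fold changes of 0.15 and -0.11 (adjusted p = 0.561 and 0.532). ITGA10, a collagen receptor chain known from cartilage, was too rare to be tested, with 42 reads with propionate and 10 in control. Scaled to the library totals, the ratio was 4.01 (exact binomial 95% interval 1.98 to 8.97, which covers counting error only), and with no filter on low counts its edgeR adjusted p was 0.0274.

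The most widely shared beta chain was not called. ITGB1, with which most alpha chains pair, had 153, 138 and 151 CPM with propionate, against 137, 137 and 145 CPM in control. The libraries overlapped, and the log2 fold change was 0.08 (95% interval -0.09 to 0.25, edgeR adjusted p = 0.501). ITGB4, the long beta chain of hemidesmosomes, had 75.9, 61.3 and 59.2 CPM with propionate and 70.9, 52.5 and 52.9 CPM in control, again overlapping (log2 fold change 0.16, SE 0.121, adjusted p = 0.346). ITGB5 had 82.8, 85.8 and 78.3 CPM with propionate and 94.4, 86.2 and 85.9 CPM in control. ITGB6, like ITGB5 a partner of ITGAV, had 4.50, 4.50 and 3.64 CPM with propionate and 6.82, 4.71 and 4.58 CPM in control. In both, every propionate library lay below every control, but neither passed the test (adjusted p = 0.356 for ITGB5 and 0.296 for ITGB6).

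ITGB8 was the beta chain that fell. It encodes a partner of ITGAV that is known for activating latent transforming growth factor beta. It had 4.11, 3.13 and 3.64 CPM with propionate, against 7.52, 6.76 and 8.83 CPM in control, without overlap. It was 2.12-fold lower, with a log2 fold change of -1.08 (SE 0.222) and an edgeR adjusted p of 0.000855. ITGAV, which is its only known alpha partner, was not called. Within libraries there were 17.8, 19.7 and 17.1 ITGB8 reads per 100 ITGAV reads with propionate and 27.5, 27.0 and 47.3 in control. This ratio is not per transcript length, so only its difference between the groups can be read.

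ITGB7, a chain best known from lymphocytes that home to or stay in the gut epithelium, rose. It had 3.72, 3.22 and 5.33 CPM with propionate and 1.31, 2.48 and 2.42 CPM in control, so the groups did not overlap but lay close (fold 1.96, log2 fold change 0.97 with SE 0.321, adjusted p = 0.0244 by edgeR). Its alpha partners are ITGA4, which had no read in any library (3 reads would be at most 0.262 CPM), and ITGAE, which had 28, 26.6 and 30.7 CPM with propionate and 27.5, 29.3 and 34.9 CPM in control. The call was lost without propionate library 3 (log2 fold change 0.74, adjusted p = 0.136), without control library 1 (log2 fold change 0.73, adjusted p = 0.110) and with a correction for transcript GC content (log2 fold change 0.78, adjusted p = 0.0696). In the GENCODE annotation ITGB7 shares 1886 exon bases with ZNF740 on the opposite strand, and whether reads were counted by strand is not stated. ZNF740 moved the other way, at 8.22, 7.39 and 7.95 CPM with propionate and 11.2, 12.3 and 14.7 CPM in control.

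**Figure D2:**
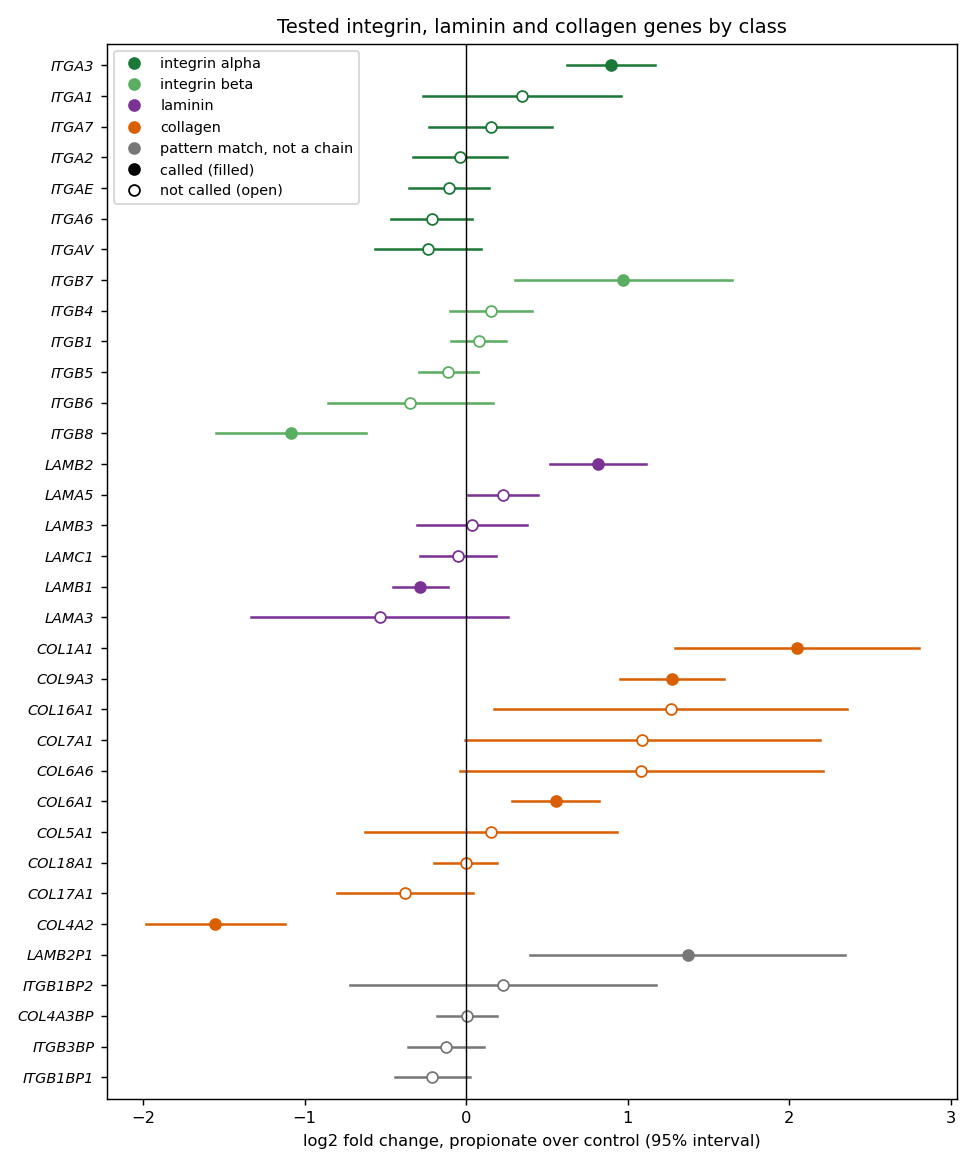
Log2 fold change, propionate over control, with its 95% interval for the tested genes named in the text, by class from top to bottom; filled points passed the adjusted p threshold of 0.05 and open points did not. The called genes run from COL4A2 at -1.55 to COL1A1 at 2.05, and the intervals of the laminin chains LAMB3 and LAMC1 lie around 0.

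Among the laminin beta chains LAMB2 rose, LAMB1 fell and LAMB3 was not called. LAMB2, the beta chain of mature basement membranes such as that of the kidney filter, had 17.8, 18.4 and 18.7 CPM with propionate, against 10.9, 10.0 and 10.3 CPM in control. It was 1.76-fold higher with propionate, with a log2 fold change of 0.81 (SE 0.142) and an edgeR adjusted p of 0.000189. LAMB1, the more widely used beta chain, had 87.8, 92.4 and 96.2 CPM with propionate, against 111, 112 and 114 CPM in control. The groups did not overlap in either gene, and the spread within each group was small beside the gap. LAMB1 was 1.22-fold lower (log2 fold change -0.28 with SE 0.0826, adjusted p = 0.012 by edgeR), and without propionate library 1 the adjusted p was 0.0538. Within libraries there were 20.2, 19.9 and 19.4 LAMB2 reads per 100 LAMB1 reads with propionate, against 9.88, 8.97 and 8.98 in control. The reads are not scaled to transcript length, so this ratio compares the groups and not the levels of the chains.

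The stretches just upstream of the start sites of LAMB2 and LAMB1 are shown because these chains of the same position in the molecule moved apart. They are the 250 bases before the RefSeq start (GRCh38.p14, chr3:49133051-49133300 and chr7:108003162-108003411, both on the minus strand), 5′ to 3′, with the GC box GGGCGG or its reverse complement in capitals.
LAMB2: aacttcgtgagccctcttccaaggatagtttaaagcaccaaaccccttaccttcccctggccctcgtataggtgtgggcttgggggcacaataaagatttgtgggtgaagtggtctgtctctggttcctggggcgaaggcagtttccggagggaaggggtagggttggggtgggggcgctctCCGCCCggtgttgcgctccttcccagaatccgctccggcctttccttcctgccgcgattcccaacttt
LAMB1: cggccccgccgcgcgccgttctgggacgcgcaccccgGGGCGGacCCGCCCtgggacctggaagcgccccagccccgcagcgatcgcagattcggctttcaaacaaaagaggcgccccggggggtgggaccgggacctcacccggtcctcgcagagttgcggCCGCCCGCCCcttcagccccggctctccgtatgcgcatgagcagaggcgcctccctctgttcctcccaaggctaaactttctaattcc
LAMB2, the chain that rose, had 1 GC box match on either strand and 58.4% G and C in this window. LAMB1, the chain that fell, had 4 matches, a pair of which share bases, and 70.4% G and C. Of 35116 RefSeq promoters, 42.6% hold at least 1 such match in the same 250 bases. Neither window held CCAAT (in 32% of promoters), TATAAA (10.7%), CACGTG (6.34%) or TGANTCA (6.57%). A match is a description of the letters only.

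The other laminin chains described here did not pass the test. LAMA5, the main alpha chain of the intestinal basement membrane, had 64.9, 62.9 and 81.4 CPM with propionate and 56.8, 61.8 and 60.1 CPM in control. All 3 propionate libraries lay above the controls, by little except in library 3, and the log2 fold change was 0.23 (SE 0.104, edgeR adjusted p = 0.0998, and 0.0219 with the replicate block). LAMC1, the gamma chain that joins LAMB1 or LAMB2, had 25.5, 25.2 and 25.7 CPM with propionate and 28, 25.2 and 26.2 CPM in control (log2 fold change -0.05, 95% interval -0.29 to 0.18).

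LAMA3 and LAMB3 encode chains of the laminin that holds hemidesmosomes. LAMB3 had 13.7, 12.1 and 17.5 CPM with propionate and 14.5, 12.3 and 15.3 CPM in control. LAMA3 had 2.48, 1.45 and 2.12 CPM with propionate and 3.41, 1.37 and 4.00 CPM in control. The groups overlapped for both chains. The 95% intervals of their log2 fold changes ran from -0.30 to 0.38 for LAMB3 and from -1.33 to 0.26 for LAMA3, and the control libraries of LAMA3 spread widely, with 39, 16 and 48 reads. LAMB2P1, a pseudogene that lies next to LAMB2, had 69 reads with propionate and 25 in control (fold 2.59, edgeR adjusted p = 0.0281). Reads of the gene and of its copy may have been split in counting. Its call was lost without any single propionate library (adjusted p = 0.0653, 0.0783 and 0.0503 without libraries 1, 2 and 3), without control library 1 (adjusted p = 0.136) and without control library 3 (adjusted p = 0.0761).

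Among the collagens, the rises were in chains known mainly from connective tissue. COL9A3, a chain of type IX collagen, which decorates the fibrils of cartilage, had 18.3, 24.7 and 21.7 CPM with propionate, against 9.53, 8.90 and 8.25 CPM in control. The lowest propionate library stood well above the highest control. It was 2.42-fold higher, with a log2 fold change of 1.28 (SE 0.154) and an edgeR adjusted p of 4.08e-06. COL9A3 shares 45 exon bases with TCFL5 on the opposite strand in the GENCODE annotation, and TCFL5 had 51.6, 58 and 64.4 CPM with propionate and 39.9, 34.1 and 38.8 CPM in control.

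COL1A1, the major chain of type I collagen, the fibrillar collagen of bone and scar, was a rare transcript with the largest log2 fold change of the 35 genes. It had 3.49, 4.42 and 3.13 CPM with propionate, against 1.14, 0.856 and 0.667 CPM in control, or 137 reads with propionate and 31 in control. Again no library overlapped the other group. It was 4.13-fold higher (log2 fold change 2.05 with SE 0.362, and adjusted p = 0.000219 by edgeR). Of the 11 fibroblast and mesenchymal markers, COL1A1 included, 6 had at least 30 reads (LUM, PDGFRB, COL1A1, COL3A1, ACTA2 and FAP), and DCN and PDGFRA had none. Their summed level was 11.2 to 14.1 CPM with propionate and 7.67 to 11.3 CPM in control. COL1A1 itself gave 3.13 to 4.42 CPM and 0.667 to 1.14 CPM of these sums, which are therefore not separate from its rise. The part of such cells in the rise of COL1A1 was not tested.

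COL6A1, a chain of the beaded filaments of type VI collagen, had 47.2, 41.2 and 43.8 CPM with propionate, against 36.7, 29.4 and 24.1 CPM in control. The groups did not overlap, although the controls spread more widely. It was 1.47-fold higher (log2 fold change 0.55 with SE 0.129, adjusted p = 0.00249 by edgeR). With the correction for transcript GC content the log2 fold change was 0.29 and the adjusted p 0.079.

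COL4A2, a chain of the type IV collagen network of basement membranes, fell. It had 6.67, 4.50 and 3.89 CPM with propionate, against 12.2, 15.0 and 17.3 CPM in control, so even the highest propionate library was well below the lowest control. The fall was 2.93-fold (log2 fold change -1.55, SE 0.207, adjusted p = 1.16e-05 in edgeR's test). COL4A1, the gene that lies head to head with it and encodes the chain it usually assembles with, had 1 read over all libraries, in a propionate library. The 126 bases between the RefSeq start sites of this gene pair (GRCh38.p14, chr13:110307158-110307283) are shown on the plus strand, in the reading direction of COL4A2, because the genes they separate had such unlike read counts. The capitals mark a GC box.
COL4A1-COL4A2: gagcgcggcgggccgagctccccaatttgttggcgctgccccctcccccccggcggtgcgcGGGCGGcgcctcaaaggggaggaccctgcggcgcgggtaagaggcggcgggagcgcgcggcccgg
This stretch was 80.2% G and C and held 1 GC box, which 34.6% of RefSeq promoters hold in their nearest 126 bases, and 1 CCAAT, which 21.1% hold there. The matches do not overlap.

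The upstream window of ITGB8 is shown as that of the integrin chain that fell (GRCh38.p14, chr7:20330650-20330899, plus strand).
ITGB8: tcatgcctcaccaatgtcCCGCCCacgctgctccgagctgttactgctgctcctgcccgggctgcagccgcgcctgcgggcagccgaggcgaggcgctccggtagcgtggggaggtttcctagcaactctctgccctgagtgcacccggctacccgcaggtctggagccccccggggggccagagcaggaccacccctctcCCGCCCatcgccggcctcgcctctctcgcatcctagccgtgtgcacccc
It held 2 GC boxes and 1 CCAAT, which do not overlap, at 71.2% G and C. RefSeq promoters were found for 30 of the 41 genes and for 5 of the 10 called ones, and COL1A1, COL9A3, COL6A1, ITGA3 and LAMB2P1 had no entry.

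The epithelial collagens COL18A1 and COL17A1 did not pass the test. COL18A1, the source of endostatin and a proteoglycan of epithelial and vascular basement membranes, had 104, 122 and 111 CPM with propionate and 101, 121 and 116 CPM in control. Its log2 fold change was -0.00 (95% interval -0.20 to 0.19, edgeR adjusted p = 0.981), and -0.34 with the GC correction (adjusted p = 0.00765). It shares 1401 exon bases with SLC19A1 on the opposite strand, which had 27.4, 22.6 and 22.7 CPM with propionate and 31.2, 31.5 and 27.1 CPM in control. COL17A1, the membrane-spanning collagen of hemidesmosomes, had 8.61, 5.22 and 6.77 CPM with propionate and 9.01, 8.30 and 9.50 CPM in control. Of its propionate libraries 1 lay within the range of the controls (log2 fold change -0.38, SE 0.201, edgeR adjusted p = 0.158). With the GC correction and the replicate block together COL17A1 was called lower (log2 fold change -0.51, edgeR adjusted p = 0.0244).

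The rarer collagens COL16A1, COL7A1 and COL6A6 had log2 fold changes of 1.27, 1.09 and 1.09 but did not pass the test (edgeR adjusted p = 0.0678, 0.117 and 0.127), and COL5A1 was at 0.15 (adjusted p = 0.79). In all, 3 of 10 tested collagens were called higher and 1 lower, beside 2 of 13 integrins higher and 1 lower, and 1 of 7 laminins in each direction. Another 5 collagens had at least 30 reads and were too rare to be tested. COL5A3 had 18, 14 and 6 reads with propionate and 0, 0 and 4 reads in control, 9.08 times as many per library read (exact binomial 95% interval 3.27 to 35.0), and with no filter on low counts its edgeR adjusted p was 0.00328. COL4A4, COL5A2, COL27A1 and COL3A1 had 22, 22, 21 and 18 reads with propionate and 9, 11, 28 and 37 reads in control. Of the 37 control reads of COL3A1, 26 were in control library 1.

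Several of the called chains had far more reads than the chains they assemble with. COL1A1 had 168 reads over all libraries and COL1A2, the other chain of type I collagen, had 1. COL6A1 had 2693 reads, while among the other type VI chains COL6A2 had 7, COL6A3 had 1, COL6A5 had 5 and COL6A6 had 59. COL9A3 had 1111 reads, COL9A2 had 1 and COL9A1 had none. The same held for COL4A2, with 709 reads beside the 1 read of COL4A1.

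**Figure D3:**
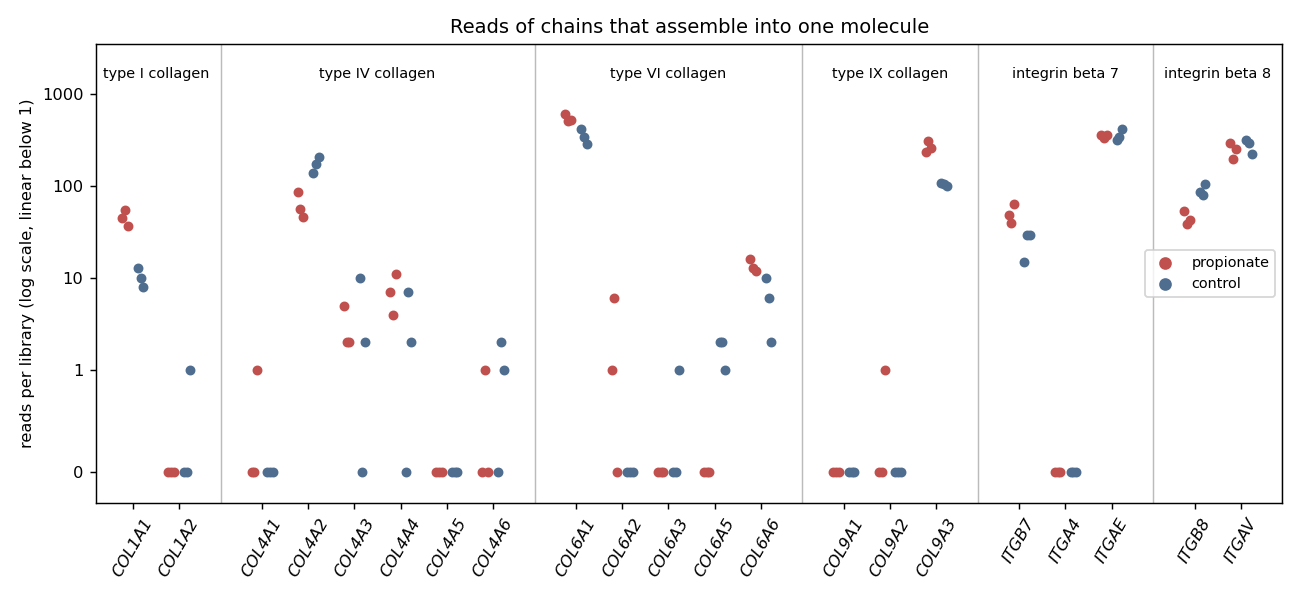
Reads per library (log axis, linear below 1 read) of chains that assemble into 1 molecule, with propionate at the left and control at the right of each gene. COL1A1, COL4A2, COL6A1 and COL9A3 have between 8 and 609 reads in each library, whereas COL1A2, COL4A1, COL6A3, COL9A1, COL9A2 and ITGA4 have no more than 1.

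Of the genes that only share a prefix with these families, LAMB2P1 alone was called. COL4A3BP had 87.7, 80.9 and 85.5 CPM with propionate and 86.8, 77.0 and 89.2 CPM in control. ITGB3BP, a kinetochore protein gene, ITGB1BP1, whose product binds the tail of ITGB1, and ITGB1BP2, a muscle protein gene, had log2 fold changes of -0.12, -0.21 and 0.23 (edgeR adjusted p = 0.433, 0.162 and 0.738).

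Transcript GC content moved with the calls over the whole table. With the tested genes cut into 5 equal groups by GC content, the highest group ran from 58.1% to 74.7%, and in it 32.8% were called higher and 9.19% lower, and in the lowest of the 5 equal groups 8.02% were called higher and 23.1% lower. Of the 35 tested genes 15 were in the highest group, and 6 of these were called higher and 1, COL4A2, lower. The part of GC content in these calls was not tested. All 7 rises were in genes with a GC content above the median of tested genes (48.5%), as were the falls of LAMB1 (49.5%) and COL4A2 (62.0%), whereas ITGB8, which also fell, was at 37.8%. With each library's GC trend taken as an offset, 6 of the 35 genes were called higher and 4 lower. The shares of all tested genes in that fit were 17% and 16.6%. The added calls were ITGB1 (edgeR adjusted p = 0.0279) and COL18A1 (edgeR adjusted p = 0.00765). ITGA3, LAMB2, COL9A3 and COL1A1 were still called higher, with log2 fold changes of 0.67, 0.61, 0.94 and 1.82, and COL4A2 and ITGB8 lower, with -1.80 and -0.91.

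**Figure D4:**
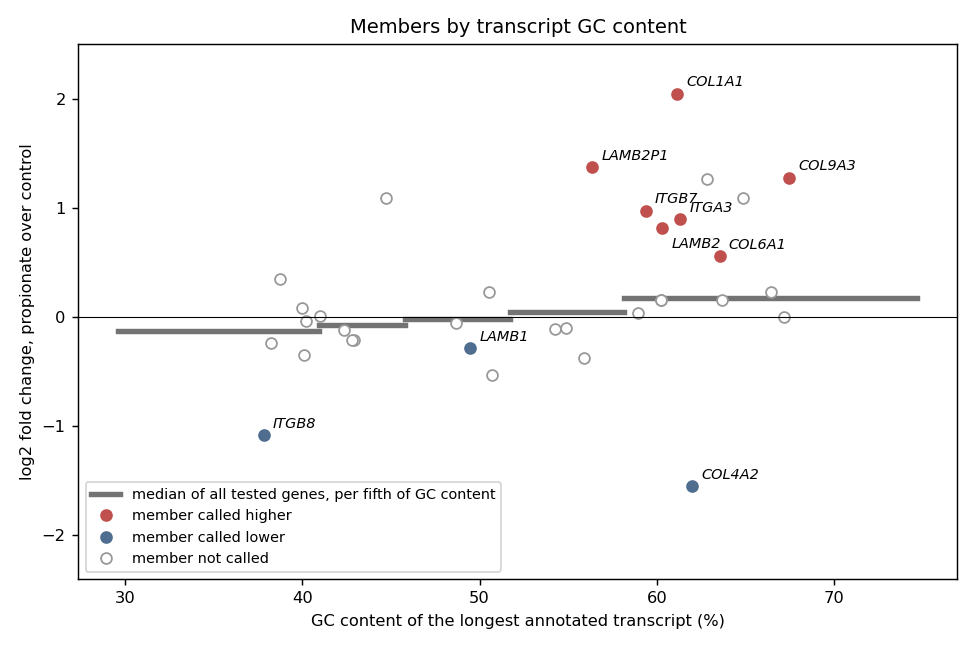
Log2 fold change, propionate over control, against the GC content of the longest annotated transcript for the tested genes named in the text; filled points passed the test and grey bars give the median of all tested genes in each of 5 equal groups by GC content. Most rises lie at high GC content, where the median of all tested genes is 0.18, and COL4A2 lies far below it.

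Genes that work with these chains were examined in 9 lists. The lists were chosen with earlier results of these data known, so their counts do not test whether such genes differ from the whole table. Of 124 tested partner genes 37 were called higher and 9 lower, beside 17.2% and 17% of all tested genes. With the replicate block the counts were 50 higher and 19 lower, and with the GC offset 31 higher and 16 lower. Of all tested genes the block fit called 21.9% higher and 22.6% lower, and the GC offset fit 17% and 16.6%. The median log2 fold change of the 124 was 0.19. An unadjusted p under 0.05, which is given below for lists with no call in 1 direction, was reached by 5933 of all 13605 tested genes. Of the partner genes named here, AGRN, SMOC1, DDR1, CD81, PLEC, KRT18, PLOD1, P3H4, LOXL3, MMP15 and LTBP3 were not called with the GC offset (adjusted p between 0.0705 for PLOD1 and 0.7 for LTBP3).

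The partners of laminin and collagen in the basement membrane had 4 of 9 tested genes higher and none lower (4 had an unadjusted p under 0.05), with a median log2 fold change of 0.49. HSPG2, which encodes the proteoglycan perlecan, rose 1.72-fold, with 67.9 ± 2.61 CPM with propionate and 39.6 ± 4.41 CPM in control (mean ± SD, n = 3 each, edgeR adjusted p = 9.14e-06). TINAGL1, a matrix protein gene related to a kidney antigen, was at 199.9 ± 19.5 and 140.9 ± 15.6 CPM in the same groups. AGRN, which encodes agrin and links laminin to dystroglycan, was at 130.3 ± 17.2 CPM with propionate and 92.6 ± 10.9 CPM in control. SMOC1, a calcium-binding matrix protein gene, rose 1.52-fold, but its groups overlapped, with 9.31 CPM in propionate library 3 and 10.3 CPM in control library 1. Its call was lost without propionate library 1 or 2 or control library 2 or 3 (adjusted p between 0.106 and 0.156).

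Among receptors for laminin and collagen other than integrins, 2 of 7 tested genes were higher and none was lower, with 2 at an unadjusted p under 0.05. They were the syndecan gene SDC4 (1.35-fold) and the collagen receptor kinase gene DDR1 (1.21-fold). With the GC offset SDC1 and DAG1 were called lower (edgeR adjusted p = 0.00334 and 0.0282). With the replicate block SDC1 and CD44 were called lower (edgeR adjusted p = 0.042 and 0.0234). Of 12 tetraspanins and other membrane partners of integrins, TSPAN4 (1.79-fold) and CD81 (1.29-fold) were higher and none was lower, with 4 at an unadjusted p under 0.05. The replicate block added SLC3A2, CD9, CD46 and TSPAN8 as lower (edgeR adjusted p between 0.00198 and 0.0111) and PLAUR, CD47 and CD151 as higher. The GC offset added SLC3A2 as lower (edgeR adjusted p = 0.0047) and CD47 as higher (edgeR adjusted p = 0.0102).

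Inside the cell, talin, kindlin and focal adhesion genes had 11 of 37 tested genes higher and 4 lower. PTK2B, the calcium-responsive relative of focal adhesion kinase, rose 2.36-fold, with 48.1 ± 6.52 CPM with propionate and 20.3 ± 0.716 CPM in control. NEDD9, a scaffold of focal adhesion kinase signalling, rose 2.35-fold, the tensin gene TNS4 1.67-fold and GIT1, an adaptor of adhesion turnover, 1.75-fold. The fall with the smallest p was that of FERMT1, which encodes the kindlin of epithelial cells that activates integrin beta chains. It was at 232.9 ± 8.24 CPM with propionate and 350.0 ± 6.98 CPM in control (log2 fold change -0.59 with SE 0.0762, adjusted p = 8.77e-06 by edgeR). TRIP6 fell 1.51-fold, PARVA, a partner of integrin-linked kinase, fell 1.39-fold and FBLIM1 fell 1.4-fold. The call of FBLIM1 was lost without propionate library 1 or control library 2 (adjusted p = 0.101 and 0.122).

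Of the hemidesmosome partners, 3 of 8 were higher and 1 was lower. EPPK1, a plakin gene of epithelial keratin networks, rose 2.20-fold, with 159.6 ± 16.5 CPM with propionate and 72.5 ± 9.01 CPM in control. PLEC, which encodes plectin and ties ITGB4 to keratin, rose 1.41-fold. KRT18 rose 1.25-fold with overlapping groups, and its call was lost without propionate library 1 or control library 2 or 3 (adjusted p between 0.0861 and 0.155). ERBB2IP, whose product binds the hemidesmosome, fell 1.6-fold.

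Genes of collagen folding, modification and export moved both ways, with 4 of 19 higher and 4 lower. The prolyl hydroxylase family genes P3H1 and P3H4 rose 1.89-fold and 1.33-fold, the lysyl hydroxylase gene PLOD1 1.32-fold and the collagen export gene MIA3 1.21-fold. The falls were KLHL12 (1.66-fold), an adaptor for large collagen carriers, the collagen chaperone gene SERPINH1 (1.29-fold), the collagen galactosyltransferase gene COLGALT1 (1.20-fold) and CRTAP (1.25-fold), a partner of P3H1. The groups of CRTAP overlapped. MIA3 was not called without any single library (adjusted p between 0.0522 and 0.207), P3H4 without propionate library 2 (adjusted p = 0.0641), COLGALT1 without propionate library 2 or control library 1 (adjusted p = 0.0801 and 0.0866) and CRTAP without propionate library 1 or 2 or control library 1 or 3 (adjusted p between 0.0702 and 0.175).

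Genes of collagen cleavage and cross-linking had 3 of 7 higher and none lower, with 4 at an unadjusted p under 0.05. The proprotein convertase gene FURIN rose 1.69-fold, PCOLCE, an enhancer of procollagen cleavage, 2.80-fold, and LOXL3 1.23-fold. The call of LOXL3 was lost without propionate library 1 or 3 or control library 1 or 2 (adjusted p between 0.0515 and 0.246).

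Matrix proteases and their inhibitors had 6 of 12 higher and none lower, with 7 at an unadjusted p under 0.05. The inhibitor gene TIMP2 rose 3.01-fold, with 17.4 ± 0.233 CPM with propionate and 5.77 ± 1.33 CPM in control (edgeR adjusted p = 1.59e-06). TIMP4 rose 1.97-fold, TIMP3 2.34-fold and the membrane-type protease gene MMP15 1.32-fold. TIMP1 was not called, at 94.0 CPM with propionate and 98.4 CPM in control (edgeR adjusted p = 0.593). With the GC offset TIMP1 and MMP24 were called lower (log2 fold change -0.23 and -0.29, edgeR adjusted p = 0.0424 and 0.0419). Without control library 2 TIMP3 and MMP15 were not called (adjusted p = 0.0641 and 0.0644). Of 13 genes of other integrin ligands or of proteins that hold such ligands, MFGE8 (1.92-fold) and LTBP3 (1.23-fold) were higher. None was lower, and 4 had an unadjusted p under 0.05. LTBP3, which holds latent transforming growth factor beta in the matrix, was not called without propionate library 1 or control library 3 (adjusted p = 0.0512 and 0.0947).

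**Figure D5:**
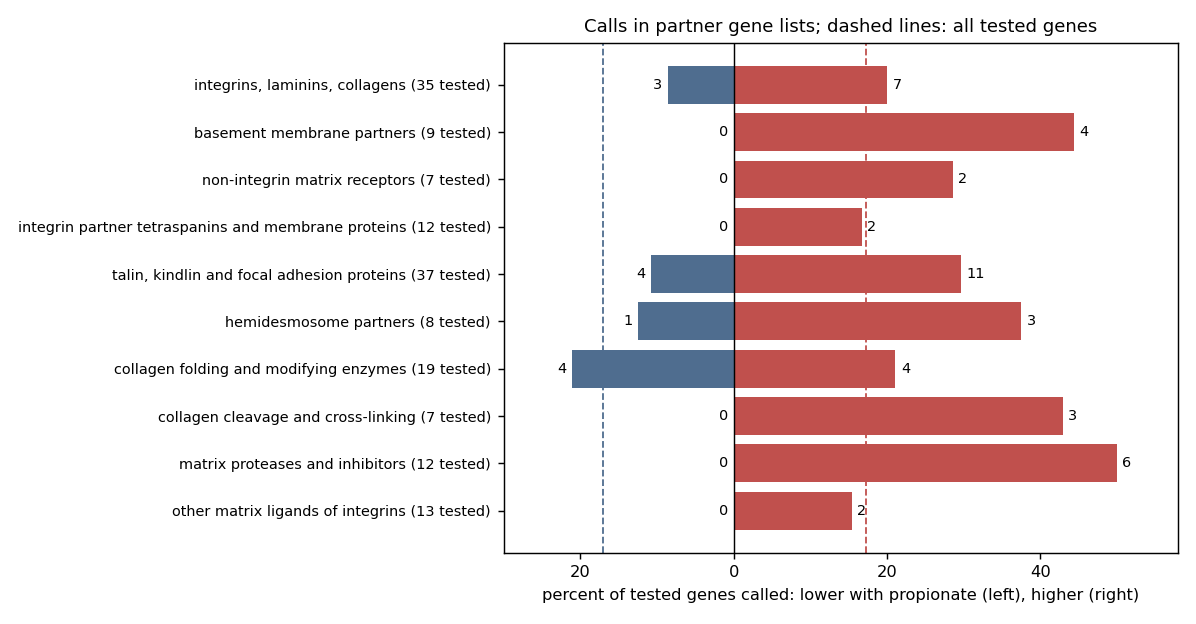
Percent of tested genes called higher with propionate (right) and lower (left) for the 35 tested genes and for each partner list, with the number called at the end of each bar; dashed lines give the 17.2% and 17% of all tested genes. The bar of the 35 genes ends near the dashed line at the right and short of it at the left. The partner lists were chosen with earlier results of these data known.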

How the data were processed

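For each library the authors deposited a table of gene symbols with raw read counts, whole numbers whose totals differ. Libraries were made with a Lexogen QuantSeq kit from 500 ng of total RNA, per the labels' protocols. Kits of that name usually read 3' ends, but the catalogue number in the labels may be that of another kit of this maker, so which part of a transcript the counts cover is uncertain. Bowtie2, edgeR and the builds hg19 and GRCh37 are named in the submitters' processing notes, with no role. How reads were counted, on which strand and against which annotation, was not given in the sources used here. Sample titles gave the groups, and their prime marks the replicate numbers.

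Counts of repeated symbols were summed. Genes kept by filterByExpr were fitted with edgeR 4.0.16 (R 4.3.3; quasi-likelihood F test, TMM factors, no covariate, two-sided), and p-values were adjusted over all 13605 genes. Standard errors are the log2 fold change over the square root of F. Intervals of ratios of reads cover counting error only. GC content was that of the longest GENCODE 29 transcript, found for all 41 genes, and GC trends were splines with 4 degrees of freedom. Libraries of a group differed by a chi-square per degree of freedom of 6.01 to 8.85, above sampling noise. Deviations of same-number libraries from their group means correlated at 0.240, 0.396 and 0.442, all over 0.1, and libraries were treated as paired by number in an alternative fit. This pairing comes from the data, since no label states it.

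Full values are given for called genes with at least 3 CPM in the higher group and for chains typical of intestinal epithelium, reads for rarer ones, and up to 4 called genes per direction of each partner list. The genes and lists were chosen with earlier results of these data known. The alternatives comprised limma-voom (limma 3.58.1), DESeq2 1.42.0, changed scaling factors and filters, thinning to the smallest total, the block, the GC offset and leaving out each library. A result for 1 of the tested genes is not reported here.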

Additional observations from a re-analysis of the deposited data

How the results depend on the processing

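Of the 10 called genes, 6 (ITGA3, ITGB8, LAMB2, COL9A3, COL1A1 and COL4A2) passed the threshold in all 17 alternatives run for each gene. The count of genes called higher, 7, was between 6 and 9 under every alternative, and without single libraries also between 6 and 9. The count called lower, 3, was 2 to 4 without single libraries, 5 with the replicate block and 6 with the GC offset and the replicate block together. Among partner genes 37 were higher and 9 lower. Without single libraries these were 29 to 39 and 7 to 11. With at least a 1.5-fold change required as well these counts were 18 and 4. The share of all tested genes was not computed at that limit, without single libraries, or with the GC offset and the replicate block together. The counts in those settings therefore show only how far the calls depend on the processing. The count of partner genes called lower was 19 with the replicate block, 16 with the GC offset and 17 with both. LTBP3 turned to a log2 fold change of -0.0459 with the GC offset and replicate block (adjusted p = 0.582) and of -0.0466 with the GC offset alone (adjusted p = 0.7). The cause of these differences was not tested. DESeq2, limma-voom and other scaling factors gave 7 genes higher and 3 lower. Other scaling factors moved the median of all tested genes by at most 0.0249 on the log2 scale. Depth limited the rarest genes, and 6 with at least 30 reads had no test.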

Other observations

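Of the 91 symbols that match the families, 50 had under 30 reads over all libraries and 13 of these had none. They held 29 collagens, 10 integrin alpha chains, 2 integrin beta chains and 5 laminin chains. Several integrin chains of leukocytes and platelets were among them, but not ITGB7 and ITGAE, which had 224 and 2131 reads. ITGB2, the common beta chain of leukocyte integrins, had 9 reads with propionate and 6 in control. ITGAL and ITGAM had 1 read each over all libraries, ITGAX had 4 and ITGA2B had 2, while ITGA4, ITGAD and ITGB3 had none. ITGA5, the alpha chain of the main fibronectin receptor, had 1 read. COL13A1, a membrane-spanning collagen, had 21 reads with propionate and 6 in control, and COL21A1 had 13 reads with propionate and none in control. LAMA4, a laminin chain of vessels, had 7 reads, all in control, of which 6 were in control library 1.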
